A study of Mus musculus with 6 samples.

Results

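*Dppa2*, *Dppa3*, *Dppa4* and *Dppa5a* are the members of the developmental pluripotency-associated genes examined in undifferentiated mouse ESCs with and without *Alkbh1*. They were found by gene symbol, older symbol or gene identifier in a table of 33142 probe sets, and a gene with several probe sets was represented by the one with the highest mean. All 4 genes were found, on 5 probe sets, among 15364 genes that could be named. Wild-type (WT) and *Alkbh1*-/- mESCs, both on a C57BL/6 background and derived from littermate embryos, were measured at passage 8 and day 0 of differentiation, with 3 Affymetrix arrays for each genotype. Both were cultured with LIF on irradiated mouse embryonic fibroblasts and received no other treatment. The labels do not say whether the 3 arrays of a genotype came from separate cultures. The values analysed here are means made by the authors, one over all 6 arrays for each probe set and, for part of the probe sets, one for each genotype. Per-array values are not used here, so no spread between arrays stands beside a mean, and no difference between the genotypes was tested.

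The Dppa genes were named for an expression in pluripotent cells that resembles that of *Oct4*, and their products are not a single protein family. DPPA2 and DPPA4 carry a SAP domain, bind each other and DNA, and are known as activators of genes of the two-cell-like state. DPPA3 (also called STELLA or PGC7) marks primordial germ cells and the oocyte, protects the maternal genome from loss of methylation and binds UHRF1, the factor that brings DNMT1 to replicated DNA. DPPA5A (ESG1) is an RNA-binding protein with a KH domain and a marker of undifferentiated mESCs.

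*Dppa2* and *Dppa4*, the genes of the DNA-binding pair, lie side by side on chromosome 16 in the RefSeq genes of assembly GRCm38.p6, with 15.98 kb between them. *Dppa4* (chr16:48283735-48294292, 1429597_at, named by an older symbol in the table) had a mean of 11.46 over all arrays, on the log2 scale of the normalized values. *Dppa2* (chr16:48310274-48319513) had 2 probe sets, 1429654_at with a mean of 11.29 and 1453223_s_at with a mean of 11.28. These differed by 0.0056 on the log2 scale. Each of the other 3 genes had a single probe set, so that only *Dppa2* allowed such a comparison.

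*Dppa5a*, the gene of the KH-domain protein, lies on chromosome 9 (chr9:78367052-78368199). Its probe set, 1416552_at, had a mean of 14.49 on the log2 scale over all arrays. Only 1 of the 33142 probe sets had a higher mean, and the highest was 14.67, so that the signal of *Dppa5a* stood at the top of the range the arrays returned. RefSeq lists pseudogenes of this gene on the same chromosome, *Dppa5b* and *Dppa5c*, and whether the probe set separates them from *Dppa5a* is not given in the sources used here.

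*Dppa3*, the germ cell and oocyte factor, lies on chromosome 6 (chr6:122626424-122630271). Its probe set, 1424295_at, had a mean of 10.13 on the log2 scale over all arrays. The lowest of all probe sets had a mean of 3.22, the highest of 14.67, and the median was 6.31. The brightness of a probe set also depends on how well its probes bind, so these means place each gene in the range of the arrays and do not rank the transcripts by abundance. RefSeq also lists a pseudogene of *Dppa3* on the X chromosome, *Dppa3-ps*, and whether the probe set detects it is likewise not given in the sources used here.

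**Figure D1:**
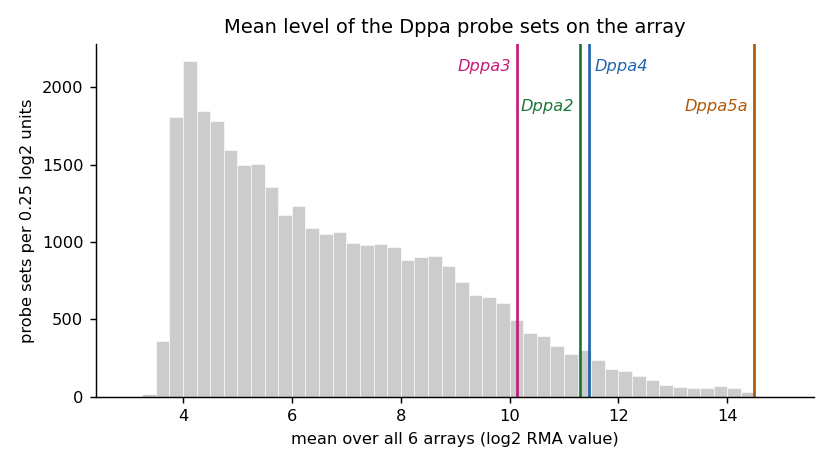
Histogram of the mean log2 value over all 6 arrays for 33142 probe sets, in bins of 0.25, with a line at the brightest probe set of each Dppa gene. *Dppa3* stands at 10.13, *Dppa2* and *Dppa4* at 11.29 and 11.46, and *Dppa5a* at 14.49, near the right end of the range.

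Of the Dppa genes, *Dppa3* alone had genotype means among the values used here. They come from a class comparison that gives, for 4326 entries, the geometric mean intensity of the WT and of the *Alkbh1*-/- arrays. The mean of *Dppa3* was 1882 in WT and 671 in *Alkbh1*-/- mESCs, as the authors' means on the linear scale. The mean was thus 2.81-fold lower in *Alkbh1*-/- mESCs, a difference of −1.49 between the log2 means of 9.39 and 10.88. Fewer cells with the transcript and less transcript per cell cannot be told apart in such bulk samples. The lower of these means was still higher than 6.31, the midpoint of the ranked probe sets.

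The identity of this entry was examined, because the entries of the class comparison stand beside probe set identifiers that do not belong to their values. The mean of an entry's 2 log2 values should equal the mean over all arrays in the larger table, since each genotype has 3 arrays. Within 1e-06 on the log2 scale, 4232 of the 4326 entries found a probe set that matched no other entry and had no rival, and only 8 of them carried that probe set's identifier. The entry printed beside the identifier of *Dppa3* had means of 1910 in WT and 3213 in *Alkbh1*-/- mESCs, which is a log2 difference of 0.75 in the opposite direction. Its values belong by level to 1418073_at, a probe set of *Acot9*.

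The targeted gene served as a check of both the labels and the match. *Alkbh1* at its brightest probe set, 1434660_at, had a mean of 761 in WT and 25.7 in *Alkbh1*-/- mESCs when the entry was tied by level, a 29.6-fold lower mean. Its other probe set, 1438681_at, had means of 120 and 34.6. With the printed identifiers, the same probe sets would have had means of 145 and 62.3 and of 26.2 and 39.7, the second of them higher in the cells that lack the gene. Entries were therefore tied by level throughout.

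**Figure D2:**
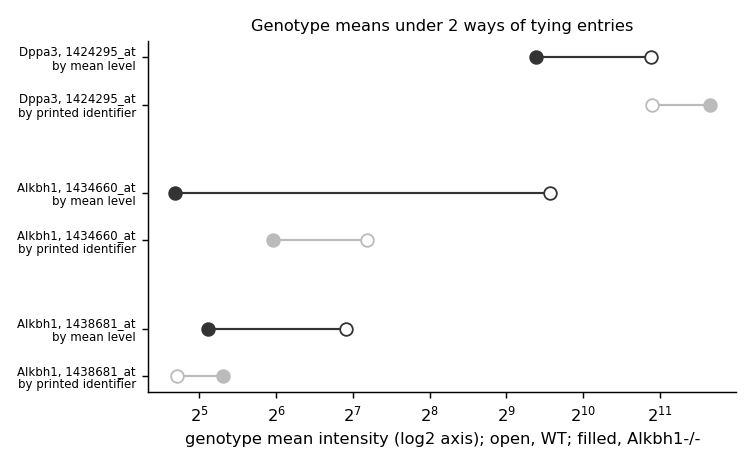
Genotype means of the *Dppa3* probe set and of both *Alkbh1* probe sets on a log2 axis of linear intensity, open circles for WT and filled circles for *Alkbh1*-/-, with the entry tied by mean level (dark) or by its printed identifier (light). Tied by level, all 3 probe sets are lower in *Alkbh1*-/- mESCs; tied by identifier, *Dppa3* and 1438681_at are higher.

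The class comparison is a selected table. According to its header, 45101 probe sets served to model the variance, a filter left 7320 of them for comparison, and listing took a nominal p under 0.05. A matched entry was found for 12.8% of all probe sets and for 261 of the 3191 probe sets at least as bright as *Dppa3* (8.18%), against 1 of the 4 Dppa genes. By gene, 2262 of the 15364 named genes had a matched entry at their brightest probe set. The list and neighbour counts below use this unit. No matched entry had a log2 difference smaller than 0.37 in size. *Dppa2*, *Dppa4* and *Dppa5a* had no entry, and which of the criteria left them out was not analysed here, so their genotype means are not given and no equality of the genotypes follows.

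Within that selection, *Dppa3* was among the larger differences. Of the matched entries, 30.3% (1284 of 4232) were lower in *Alkbh1*-/- mESCs by more than 1.5-fold, the fold used here, and a further 32.8% were higher by more than that. A difference as low as that of *Dppa3* or lower was found for 97 entries (2.29%), and the 5th percentile of all differences was −1.17 on the log2 scale. Among 245 matched entries whose mean lay within 0.5 log2 units of that of *Dppa3*, 3 had a difference as low, *Dppa3* included. Because listing depended on the same contrast, these shares describe the table and test nothing.

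**Figure D3:**
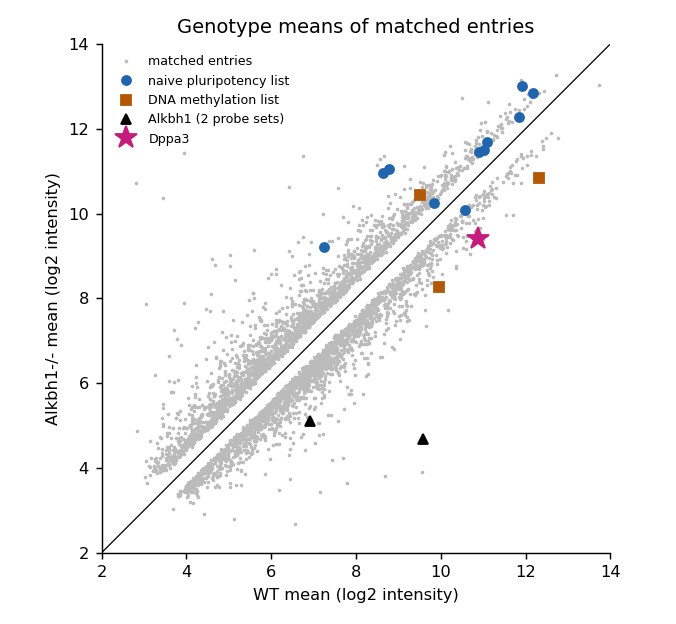
Mean of WT (x axis) against mean of *Alkbh1*-/- (y axis), both as log2 intensity, for 4232 matched entries, with the line of equality. *Dppa3* lies below the line at 10.88 and 9.39, most of the naive pluripotency genes lie above it, *Dnmt3a* and *Dnmt3b* are the squares below it, *Alkbh1* is shown by 2 triangles, and the empty band along the line reflects the smallest listed difference of 0.37.

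Genes that accompany *Dppa3* in naive mESCs were examined as a list of 17. All 17 had a named probe set and 11 had genotype means, where 12.8% of all probe sets had an entry. Of the 11 genes, 10 were higher in *Alkbh1*-/- mESCs, opposite to *Dppa3*. Only 6 of these were higher by more than 1.5-fold, where 32.8% of all matched entries were. The median log2 difference of the 11 genes was 0.60, against 48.5% lower entries and a median of 0.42 over all matched entries. The largest was that of *Tbx3*, a transcription factor that sustains self-renewal, with means of 399 in WT and 1981 in *Alkbh1*-/- mESCs. *Tcl1*, a cofactor of AKT signalling, had means of 442 and 2108, and *Prdm14*, a repressor of differentiation genes, had means of 152 and 592. *Nanog* had means of 3852 and 8267. *Klf4* had means of 4628 and 7380, and *Tfcp2l1* of 2173 and 3288. The 1 gene of the list on the same side as *Dppa3* was *Utf1*, a chromatin-bound ESC factor, with means of 1522 and 1087. *Oct4* (*Pou5f1*) and *Sox2* had no genotype means, and their means over all arrays, 12.64 and 12.66 on the log2 scale, lay high in the range of the arrays.

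The factors that set or remove DNA methylation, to which DPPA3 is tied through UHRF1, were examined as a list of 8. Of these, 7 had a named probe set and 3 had genotype means, where 12.8% of all probe sets had an entry. Lower by more than 1.5-fold were 2 of the 3, where 48.5% of matched entries were lower and 30.3% lower by more than that fold. The de novo methyltransferase genes *Dnmt3a* and *Dnmt3b* lay on the same side as *Dppa3*. *Dnmt3b* had means of 5077 in WT and 1825 in *Alkbh1*-/- mESCs, 2.78-fold lower. *Dnmt3a* had means of 1002 and 307, 3.26-fold lower. All 5 probe sets of *Dnmt3a* and all 3 of *Dnmt3b* had an entry, and over these the mean log2 differences were −1.37 and −1.56. The dioxygenase gene *Tet2*, whose product oxidizes methylcytosine, was on the other side with means of 726 and 1387. *Uhrf1*, *Dnmt1*, *Dnmt3l* and *Tet1* had no genotype means.

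Germline genes, among which *Dppa3* is counted, were examined next. Of a list of 12, 11 had a named probe set and 6 had genotype means, 3 higher and 3 lower in *Alkbh1*-/- mESCs, beside 12.8% of all probe sets with an entry and 48.5% of matched entries lower. *Ifitm3* and *Ifitm1*, membrane proteins of early germ cells, had means of 4471 in WT and 2684 in *Alkbh1*-/- mESCs and of 3567 and 2516. The germ cell helicase gene *Ddx4* had means of 485 and 297. On the higher side were *Dazl*, an RNA-binding factor of germ cells, with means of 53.0 and 136, and *Syce1*, of the synaptonemal complex, with means of 107 and 243. *Mael*, of the piRNA pathway, had means of 98.3 and 185.

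Relatives of DPPA5A with a KH domain are encoded by *Ooep* and *Khdc3*, both known for a maternal complex of the oocyte and early embryo. The list held 5 such genes, of which these 2 had a named probe set, and both had genotype means. Over the whole table, 12.8% of probe sets had an entry, and 2179 of the 4232 matched entries were higher in *Alkbh1*-/- mESCs. *Ooep*, the next protein-coding gene after *Dppa5a* with 8.70 kb between them, had means of 3140 in WT and 6109 in *Alkbh1*-/- mESCs, 1.95-fold higher. *Khdc3* had means of 112 and 431, 3.85-fold higher. No genotype means stand beside them for *Dppa5a* itself.

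The two-cell-like genes, to which DPPA2 and DPPA4 are known to be linked, were poorly covered. Of a list of 14, 2 had a named probe set and 1 had genotype means, *Tcstv1*, with 8.83 in WT and 24.7 in *Alkbh1*-/- mESCs. Both means are near the bottom of the range of the arrays, so that the size of this difference depends on how low an absent transcript reads. Of 8 genes related to imprinting, which DPPA3 helps to protect after fertilization, all had a named probe set and 1 had genotype means, *Mest* (*Peg1*), with 1086 and 726. Beside the counts of both lists, 12.8% of all probe sets had an entry and 48.5% of matched entries were lower.

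**Figure D4:**
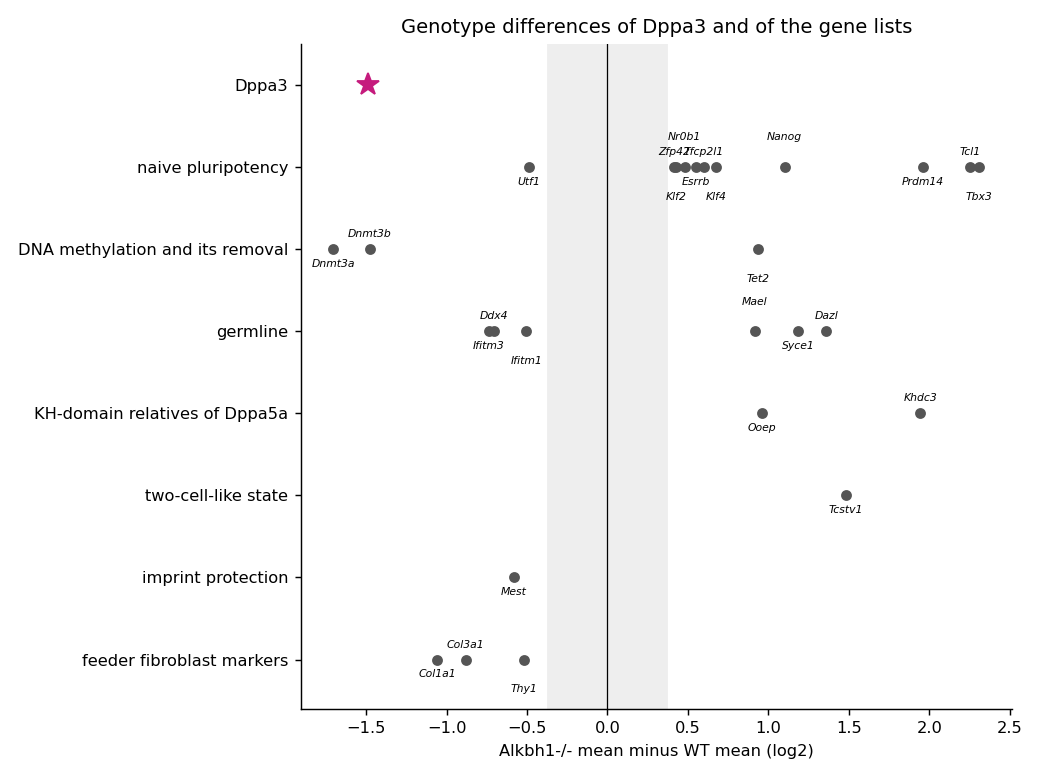
Difference between the *Alkbh1*-/- and WT means (log2) for *Dppa3* (star) and for each gene of 7 lists with genotype means (dots); the grey band of 0.37 on either side of 0 holds no matched entry. *Dppa3* at −1.49 lies beside *Dnmt3b* and *Dnmt3a*, while 10 of the 11 naive pluripotency genes lie on the higher side.

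Differences in the neighbourhood of the Dppa genes were read from the 4 protein-coding genes on each side. Of the 24 different neighbours, 13 had a named probe set and 3 had genotype means, 2 higher and 1 lower in *Alkbh1*-/- mESCs. Among all probe sets 12.8% had an entry, and 48.5% of matched entries were lower. *Dppa3* is followed by *Nanog*, 77.2 kb away, and the pair differed in opposite directions, *Dppa3* by −1.49 and *Nanog* by 1.10 on the log2 scale. *Gdf3*, a growth factor gene 16.3 kb from *Dppa3* on the other side, had no genotype means, and *Mfap5*, the fourth gene on that side, had means of 181 in WT and 85.4 in *Alkbh1*-/- mESCs. The third neighbour with genotype means was *Ooep*. Around *Dppa2* and *Dppa4*, no neighbour had an entry, but only 3 of 8 and 4 of 8 neighbours had a named probe set. Each gene of the pair counts here as a neighbour of the other.

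Values of feeder cell markers and of Y-linked genes are given beside those of *Dppa3*. Fibroblast markers were examined as a list of 12, of which 3 had genotype means at the brightest probe set, and each of these had a lower mean in *Alkbh1*-/- mESCs. *Col1a1*, *Col3a1* and *Thy1* had means of 527, 2002 and 123 in WT and of 253, 1087 and 85.7 in *Alkbh1*-/- mESCs. The other 9 markers had no entry at the brightest probe set. *Col1a2* had an entry at 1 of its 3 probe sets, not the brightest, with a log2 difference of −1.06. Over the whole table, 12.8% of probe sets had an entry and 48.5% of matched entries were lower. Over all arrays, the 12 markers had means from 6.21 (*Lum*) to 12.06 (*Fn1*) on the log2 scale. Of 4 Y-linked genes, 3 had genotype means and *Kdm5d* had none. *Eif2s3y*, *Ddx3y* and *Uty* had means of 751, 412 and 72.5 in WT and of 14.9, 14.1 and 11.2 in *Alkbh1*-/- mESCs. The *Alkbh1*-/- means, 3.90, 3.82 and 3.49 on the log2 scale, lie near the bottom of the range. The lowest mean of a probe set over all arrays was 3.22. The part of feeder cells and of the sex chromosomes in the difference of *Dppa3*, or of the genes in the lists above, was not tested. The lines differed in the signal of these 3 Y-linked genes as well as in genotype. For all of these differences, the genotype, the Y-linked difference and the origin of each line cannot be told apart.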

How the data were processed

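RNA of 3 WT and 3 *Alkbh1*-/- mESC samples was hybridized to Affymetrix GeneChip Mouse Genome arrays, and groups follow the genotype label. Per the labels and the accompanying description, all arrays were normalized together with RMA. From the authors' deposited table of 33142 probe sets, selected by a filter not given in the sources used here, the mean log2 value over all arrays was used. From the deposited class comparison of a service company, the geometric mean intensity of each genotype was used; one of its class names is stated by the authors to be a misprint for the WT arrays. Further columns of both tables hold the authors' own comparison (differences or fold changes, statistics, p-values and adjusted p-values) and were not used.

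A moderated test had been planned in case values of single arrays were present; with means only, no test was made. Entries were tied to probe sets where the mean of the 2 log2 genotype means equalled a mean over all arrays within 1e-06. Both had to be unique. The step was tried on simulated entries, each drawn from the simulated probe sets. Entries with no probe set of their own, as found for 65 of the 4326 real ones, were not simulated. Probe sets were named through RefSeq genes of GRCm38.p6 by gene identifier, accession, symbol or older symbol (28216 of 33142, 85.1%). Linear folds of 1.5 and 2 were used. The number of arrays limits precision. The members and lists were chosen with earlier results of these data known. The genes named are the Dppa genes, *Alkbh1*, cell markers, and up to 6 genes of each list and the neighbours with genotype means; *Utf1*, *Acot9*, *Eif2s3y*, *Ddx3y*, *Uty* and *Kdm5d* were added after their values were seen. Python 3.11.15, pandas 2.3.3, NumPy 2.4.6 and matplotlib 3.10.9 were used.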

Additional observations from a re-analysis of the deposited data

How the results depend on the processing

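Tying entries by their printed identifier turned the difference of *Dppa3* from −1.49 to 0.75 on the log2 scale. With a tolerance 10 times wider or narrower, it stayed at −1.49. The gene has a single probe set, so that averaging over probe sets was no alternative for it. Subtracting the median difference of all matched entries gave −1.91, but that median, 0.42, lies at the edge of the gap that holds no entries. The count of matched entries lower in *Alkbh1*-/- mESCs, 1284 at a fold of 1.5, was 337 at a fold of 2. After the same centring it was 2053. That is every lower entry, an outcome fixed by the gap of 0.37 on either side of 0, so it tests nothing. With all probe sets of a gene, the mean level of *Dppa2* was 11.28, and the median difference of each list kept its sign, that of the DNA methylation list moving from −1.48 to −1.37 and that of the fibroblast markers from −0.88 to −0.99. Leaving out single arrays was not possible with means. No paired analysis was possible because only means over arrays were used here. The signal of *Dppa5a*, at the top of the range, limits what a difference there could show.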
